A study of Mus musculus with 8 samples.

Results

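Mas-related G protein-coupled receptors (Mrgpr) are receptors for peptides and small metabolites on small-diameter sensory neurons, and several of them mark separate sets of itch and pain neurons. In the dorsal root ganglia (DRG), Mrgprd marks the unmyelinated nonpeptidergic nociceptors that end in the skin and binds beta-alanine, whereas Mrgpra3 and Mrgprx1 (also known as Mrgprc11) mark itch neurons and respond, respectively, to chloroquine and to a fragment of the proenkephalin-derived peptide BAM. Runx1 is the transcription factor best known for switching on Mrgpr genes as nociceptors mature, and the receptors largely signal through Gq and phospholipase C.

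The genes described here were 8 Mrgpr genes of sensory neurons, Mrgprd, Mrgpra1, Mrgpra3, Mrgprx1, Mrgprb4, Mrgprb5, Mrgpre and Mrgprf, taken by symbol from 55414 listed gene identifiers, and all were found. Bulk RNA-seq was performed on DRG of mouse embryos at E18.5, labelled as holding neurons and glia, with 4 libraries in each of the 2 groups. The overexpression group (AD1 OE) had the genotype AdvillinCre/+;Rosa26Dach1/+, in which Cre made from the sensory neuron gene Avil removes a stop cassette and switches on Dach1, a transcriptional corepressor, from the Rosa26 locus. The Control group had the genotype Advillin+/+;Rosa26Dach1/+, so both groups carried the silent Dach1 allele and differed in Cre. The allele also encodes EGFP, the Rosa26Dach1 line was kept on a mixed C57Bl/6J and CD1 background, and AD1 OE pups were described as dying around birth. The labels do not say whether each library came from 1 embryo, so p-values measure the spread between libraries.

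The libraries held 22339059 to 44025625 counts. Dach1 averaged 95.9 ± 5.28 CPM (counts per 1000000 counts, after TMM scaling; SD, n = 4) in AD1 OE and 32.6 ± 1.64 in Control. Avil, the gene that holds the Cre, averaged 464 ± 12.0 CPM in AD1 OE and 892 ± 35.1 in Control, so the Cre allele itself also separates the groups. Judged from sex-linked transcripts, 3 AD1 OE libraries and 1 Control library were male. Summed levels of the neuronal, glial, fibroblast and smooth muscle markers overlapped between the groups in each case, with the 7 neuronal markers summing to 7889 to 8629 CPM in AD1 OE and 8334 to 8637 CPM in Control. Such sums can hide single markers. The groups were apart for 1 fibroblast and 1 neuronal marker, higher in AD1 OE, and for 1 glial marker, lower. Over all tested genes these shares were 5.69% and 7.26%. The median log2 fold change of the 5 fibroblast markers was 0.16, and none of these markers passed the test described below. The 7 mast cell markers other than Kit, in a sum made after the values were seen, were lower in AD1 OE at 12.7 to 14.9 CPM against 16.5 to 22.7 CPM in Control, and their part in the results below was not tested. In bulk tissue, fewer neurons of a type and less transcript per neuron cannot be told apart.

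All 8 genes lie on chromosome 7. Because these receptors resemble each other, the following stretches set Mrgpra3 beside Mrgpra4, the family gene most like it in coding sequence, and Mrgpra1. They were placed around the longest run of coding bases that Mrgpra3 and Mrgpra4 share, 76 bases, so they are not typical of the whole sequence. They are the same coding stretch of 90 bases in Mrgpra3 (coding bases 208 to 297), Mrgpra1 (208 to 297) and the related gene Mrgpra4 (151 to 240), from GENCODE transcripts of the GRCm38 build, and capitals mark bases unlike Mrgpra3.
Mrgpra3: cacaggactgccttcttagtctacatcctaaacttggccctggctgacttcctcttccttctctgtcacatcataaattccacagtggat
Mrgpra1: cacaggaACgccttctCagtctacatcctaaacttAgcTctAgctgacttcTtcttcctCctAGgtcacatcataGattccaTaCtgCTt
Mrgpra4: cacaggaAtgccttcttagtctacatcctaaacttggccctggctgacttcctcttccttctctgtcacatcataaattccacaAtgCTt
In this stretch Mrgpra1 differed from Mrgpra3 at 15 bases and Mrgpra4 at 4. Over the whole aligned coding sequence, identity was 89.9% for Mrgpra3 and Mrgpra4, 84.7% for Mrgpra1 and Mrgpra3, and 86.2% for Mrgprb4 and Mrgprb5. It was 72.3% for Mrgprd and Mrgprf. No stretch of 100 bases from any of the 8 genes' transcripts was found in a transcript of another gene. With stretches of 50 bases the share found elsewhere was 7.14% for Mrgpra3, 5.84% for Mrgprx1, 3.08% for Mrgpra1 and 0 for Mrgprd and Mrgprf. How reads that fit several genes were counted is not given in the sources used here, so the low values of Mrgpra3 in particular are uncertain to the extent that such reads moved between it and Mrgpra4.

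The next lines show the 250 bases before the start of 4 of the genes, from RefSeq on GRCm38.p6, since 3 of them fell and 1 did not pass the test. Capitals mark the letters TGTGGT or TGCGGT, the core bound by Runx factors, on either strand. RefSeq promoters were matched for 6 of the 8 genes, and in the RefSeq annotation those of Mrgprb4 and Mrgprb5 begin at the coding start, so these are not shown.
Mrgprd (chr7:145314585-145314834, plus strand): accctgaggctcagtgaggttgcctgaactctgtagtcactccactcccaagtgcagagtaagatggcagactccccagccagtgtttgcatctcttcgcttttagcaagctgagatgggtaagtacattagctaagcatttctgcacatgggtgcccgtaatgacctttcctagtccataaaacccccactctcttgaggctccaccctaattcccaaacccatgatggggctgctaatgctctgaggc
Mrgpra1 (chr7:47354241-47354490, minus strand): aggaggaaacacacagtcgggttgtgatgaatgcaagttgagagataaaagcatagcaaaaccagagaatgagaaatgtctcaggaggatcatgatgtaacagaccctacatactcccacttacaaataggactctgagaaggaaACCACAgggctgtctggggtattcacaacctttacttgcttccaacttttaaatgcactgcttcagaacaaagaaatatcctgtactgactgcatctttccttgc
Mrgprx1 (chr7:48027598-48027847, minus strand): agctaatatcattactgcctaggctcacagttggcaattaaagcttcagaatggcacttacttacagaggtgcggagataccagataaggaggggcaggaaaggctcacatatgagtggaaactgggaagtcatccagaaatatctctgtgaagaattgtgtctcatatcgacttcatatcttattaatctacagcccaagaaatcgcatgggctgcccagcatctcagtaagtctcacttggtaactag
Mrgpre (chr7:143784501-143784750, minus strand): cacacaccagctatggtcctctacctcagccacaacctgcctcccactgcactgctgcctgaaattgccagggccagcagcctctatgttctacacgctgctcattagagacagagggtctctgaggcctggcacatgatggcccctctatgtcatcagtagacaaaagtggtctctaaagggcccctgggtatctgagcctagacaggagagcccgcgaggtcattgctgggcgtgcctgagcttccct
The letters occurred once upstream of Mrgpra1, 105 bases before its start and on the opposite strand, and not in the other windows shown. Of 32851 windows of the same length before all RefSeq gene starts, 6107 (18.59%) held them. A match of letters is no measurement of binding, and binding was not measured in these libraries.

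In AD1 OE, transcripts of Mrgprd, Mrgpra1, Mrgpra3 and Mrgprx1 were lower than in Control, whereas Mrgpre and Mrgprf did not pass the test. Mrgprb5 was lower at counts too low for the main filter, and Mrgprb4 was at the limit of detection in both groups. A gene was called when edgeR's quasi-likelihood test gave an adjusted p under 0.005 (Benjamini-Hochberg over 17721 tested genes) and a log2 fold change over 0.25 in size. By this rule Mrgprd, Mrgpra1 and Mrgprx1, 3 of the 8 genes, were called lower from counts above the floor in every library, beside 2.57% of all tested genes called in either direction and 1.78% called lower. In total 316 genes were called lower and 139 higher. Of the 8 genes, 6 passed the filter on low counts, and Mrgpra3 passed it through its Control libraries alone. Mrgpra3 also met the rule, but a gene that enters the test through its high group had to differ, so it is described by its counts and not counted with the others.

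**Figure D1:**
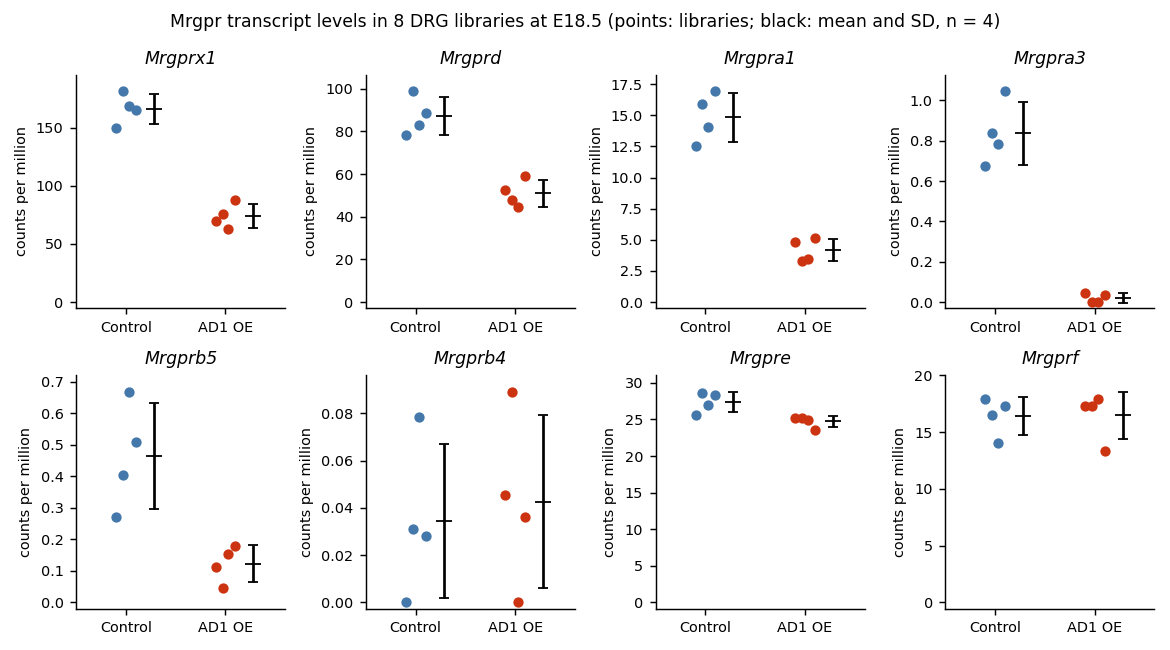
Each panel shows 1 Mrgpr gene, with CPM on a linear vertical axis, a point for each of the 4 Control (blue) and 4 AD1 OE (red) libraries, and the mean and SD in black. The groups are apart for Mrgprx1, Mrgprd, Mrgpra1, Mrgpra3, Mrgprb5 and, narrowly, Mrgpre, and they overlap for Mrgprb4 and Mrgprf. Over all tested genes, 7.26% had groups apart with AD1 OE lower.

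Mrgprx1 (ENSMUSG00000070552), the receptor for the BAM fragment, was the most abundant of the family. In bulk tissue, the neurons that held this or the other receptors at E18.5 cannot be told. The level of Mrgprx1 was 69.6, 75.7, 63.0 and 87.9 CPM in AD1 OE replicates 1 to 4 and 149, 181, 168 and 165 CPM in Control replicates 1 to 4. The highest AD1 OE library lay far below the lowest Control library. The means were 74.0 ± 10.6 and 166 ± 13.1 CPM, which put AD1 OE at 44.6% of Control. The log2 fold change was -1.17 ± 0.088 (SE), with an edgeR adjusted p of 8.73e-06.

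Mrgprd (ENSMUSG00000051207), the beta-alanine receptor of nonpeptidergic nociceptors, was the next most abundant. It was at 52.5, 47.9, 44.6 and 59.3 CPM in the AD1 OE libraries and at 78.2, 98.7, 83.1 and 88.6 CPM in the Control libraries. Every AD1 OE value lay below every Control value, and the mean in AD1 OE was 58.6% of that in Control. Mrgprd fell by 0.77 ± 0.088 (SE) on the log2 scale, with an edgeR adjusted p of 0.000197. This was the smallest change among Mrgprd, Mrgpra1 and Mrgprx1, and it does not reach a log2 fold change of 1 in size.

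Mrgpra1 (ENSMUSG00000050650), a receptor of small nociceptors related to Mrgpra3, was at 4.79, 3.34, 3.48 and 5.15 CPM in AD1 OE. In Control it was at 12.5, 15.9, 14.0 and 16.9 CPM. The groups did not overlap, and AD1 OE was at 28.2% of the Control mean. The log2 fold change was -1.81 ± 0.14 (SE), a 3.51-fold lower level, with an edgeR adjusted p of 1.11e-05.

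Mrgpra3 (ENSMUSG00000078698), the chloroquine receptor of itch neurons, was near the limit of detection in AD1 OE libraries. They held 2, 0, 0 and 1 counts, while the Control libraries held 15, 27, 20 and 37 counts. Summed over 4 libraries this was 3 counts (95% exact Poisson interval 0.62 to 8.77) against 99 (80.5 to 121). No AD1 OE library passed the floor of 3 counts per library, so only a bound is given: Mrgpra3 was at least 7.89-fold lower in AD1 OE. These intervals and floors cover counting error only.

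Mrgprb5 (ENSMUSG00000070551), of the Mrgprb branch, held 5, 1, 4 and 5 counts in AD1 OE and 6, 13, 17 and 18 in Control. After scaling for depth this was 0.113, 0.0446, 0.153 and 0.180 CPM against 0.270, 0.405, 0.668 and 0.508 CPM, and the groups did not overlap. The gene was not tested in the filtered fit. In the fit without a filter its log2 fold change was -1.87 ± 0.43 (SE) with an edgeR adjusted p of 0.0030, and an exact two-sided permutation test of the CPM values gave p = 0.0286, the smallest that 4 against 4 libraries allow. Both values rest on 15 counts in AD1 OE (95% exact Poisson interval 8.40 to 24.7) and 54 in Control (40.6 to 70.5).

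Mrgprb4 (ENSMUSG00000070550), which marks C fibres that respond to stroking of the skin, held 2, 2, 0 and 1 counts in AD1 OE and 0, 1, 2 and 1 in Control. All libraries were at or under the floor of 3 counts, which corresponds to 0.0678 to 0.135 CPM, so no fold is given. A difference was not detectable at this depth (exact two-sided permutation test, p = 0.686), and these were the only 2 such tests on single genes.

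Mrgpre (ENSMUSG00000048965), an orphan receptor found widely in sensory neurons, was at 25.2, 25.2, 24.9 and 23.6 CPM in AD1 OE. The Control libraries were at 25.6, 28.6, 27.0 and 28.4 CPM. The groups were apart by a narrow margin, and 7.26% of all tested genes had groups that were apart in this direction. The log2 fold change was -0.15 ± 0.054 (SE; 95% interval -0.25 to -0.04), and the gene was not called (edgeR adjusted p = 0.150). Mrgpre shares an exon with Gm22064 on the opposite strand in the GENCODE annotation, and whether counting used the strand is not given in the sources used here, so reads of the pair may not be told apart.

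Mrgprf (ENSMUSG00000031070), an orphan receptor known outside the nervous system as well, was at 17.3, 17.3, 17.9 and 13.4 CPM in AD1 OE and at 17.9, 16.5, 14.1 and 17.3 CPM in Control. The ranges overlapped almost wholly. The log2 fold change was 0.0035 ± 0.0998 (SE; 95% interval -0.19 to 0.20), with an edgeR adjusted p of 0.991. Its sign turned in several refits, so no direction is given. Summed smooth muscle markers, which could accompany this gene, were at 29.9 to 59.3 CPM in AD1 OE and 39.5 to 54.5 CPM in Control, with none of the 5 markers called and none at 0 in every library.

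Within each sex the same order was seen for Mrgprd, Mrgprx1 and Mrgpra1. Among females, with 1 AD1 OE and 3 Control libraries, the AD1 OE library was at 44.6 CPM of Mrgprd against a Control mean of 86.7, at 63.0 CPM of Mrgprx1 against 166, and at 3.48 CPM of Mrgpra1 against 14.1. Among males, with 3 AD1 OE libraries and 1 Control library, the means were 53.2 against 88.6 CPM for Mrgprd, 77.7 against 165 CPM for Mrgprx1 and 4.43 against 16.9 CPM for Mrgpra1. Since the groups did not overlap for these genes, this order holds in any split of the libraries and is no separate check. With a single library on 1 side in each sex, no test was made within a sex. With a sex score as a covariate these 3 genes were also called.

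**Figure D2:**
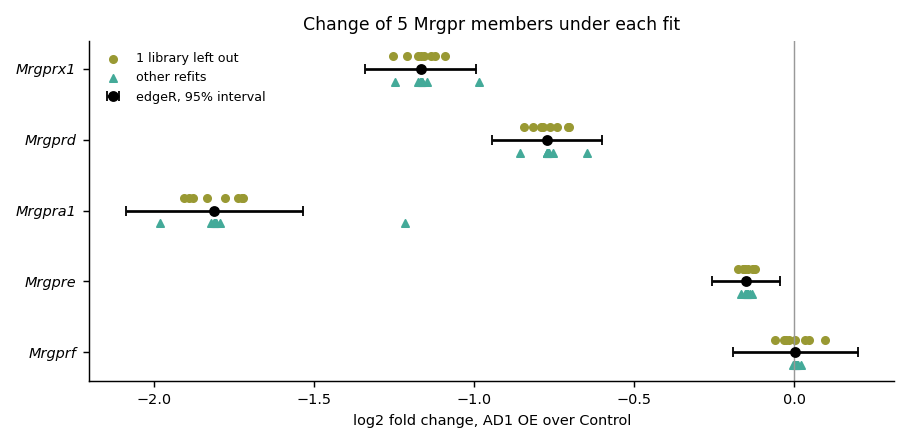
The log2 fold change of AD1 OE over Control is on the horizontal axis for 5 Mrgpr genes with more than the floor in every library. Black points are edgeR estimates with 95% intervals, circles are fits without 1 library and triangles are other refits. Mrgprx1, Mrgprd and Mrgpra1 lie left of 0 in every fit shown, Mrgpre lies slightly left, and Mrgprf falls on both sides of 0.

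Mrgprx1, Mrgprd and Mrgpra1 did not change by the same amount. To compare 2 genes without any scaling, the log2 ratio of their counts was taken within each library and compared between groups by an exact two-sided permutation test, for all 10 pairs of the 5 genes with counts above the floor in every library. For the 3 pairs among Mrgprx1, Mrgprd and Mrgpra1 the groups were apart, each at p = 0.0286, the smallest value possible, and at 0.0357 after Benjamini-Hochberg adjustment over the 10 pairs (exact tests). The other 5 pairs whose groups were apart set a called gene against Mrgpre or Mrgprf, which were not called.

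There were 5.89 counts of Mrgprd for each count of Mrgpra1 in Control and 12.3 in AD1 OE (geometric means), a difference of 1.07 on the log2 scale, so Mrgpra1 fell by more than Mrgprd. Mrgprx1 lay between them, with 1.91 counts for each count of Mrgprd in Control and 1.45 in AD1 OE. For each count of Mrgpra1 there were 11.2 of Mrgprx1 in Control and 17.9 in AD1 OE. The ratio of Mrgprd to Mrgprf, 5.30 in Control and 3.10 in AD1 OE, had overlapping groups (exact permutation p = 0.0571, adjusted 0.0635). The ratio of Mrgpre to Mrgprf, at 1.67 and 1.51, did not pass the test either (exact permutation p = 0.314).

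Levels were compared between genes per kilobase of exon. In Control, Mrgprx1 stood at 141 ± 11.1 CPM per kb, Mrgprd at 27.7 ± 2.81 and Mrgpra1 at 13.6 ± 1.80, and their ranges over libraries were apart. Mrgprf at 7.43 ± 0.762 and Mrgpre at 7.28 ± 0.370 CPM per kb came next and overlapped, followed by Mrgpra3 at 0.646 ± 0.120 and Mrgprb5 at 0.446 ± 0.162, which overlapped too, and Mrgprb4 at 0.0283.

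In AD1 OE the order of the first and second was kept, with Mrgprx1 at 62.7 ± 8.95 and Mrgprd at 16.2 ± 2.03 CPM per kb. Mrgpra1, at 3.85 ± 0.839 CPM per kb, lay below Mrgprf at 7.44 ± 0.943 and Mrgpre at 6.58 ± 0.202, whose ranges overlapped. Mrgpra1 ranged up to 4.73 CPM per kb, under the lowest Mrgprf library at 6.05, so its place relative to these genes differed from Control beyond the spread of libraries. Mrgprb5 stood at 0.118 ± 0.0568 CPM per kb, and Mrgprb4 and Mrgpra3 were at or under the floor.

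Summed over the 34 annotated family genes, Mas1 included, the level averaged 175.5 ± 15.0 CPM in AD1 OE against 322 ± 24.4 in Control. Mrgprx1 held 51.5% of the counts of these genes in Control (libraries 50.4 to 52.8%) and 42.0% in AD1 OE (39.8 to 45.1%). The share of Mrgprd was 27.0% (26.1 to 28.1%) and 29.0% (27.5 to 30.4%), with overlapping ranges. Mrgpra1 held 4.59% in Control and 2.38% in AD1 OE, whereas Mrgpre went from 8.51% to 14.2% and Mrgprf from 5.13% to 9.51%. Shares of a sum depend on each other, and no test was made on them.

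**Figure D3:**
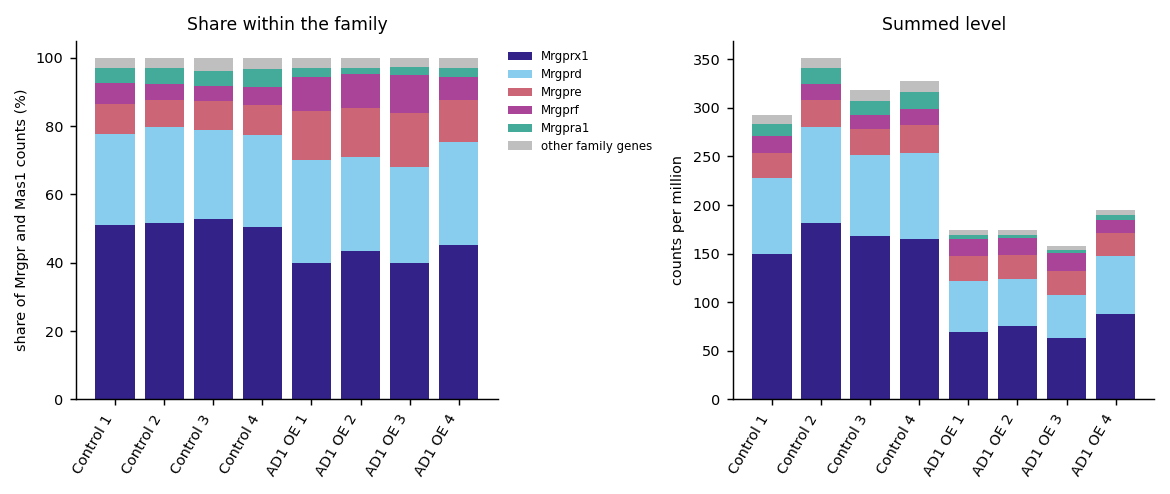
Stacked bars for each of the 8 libraries show the share of the summed Mrgpr and Mas1 counts in percent (left) and the summed level in CPM (right), both from 0. Control libraries sum to 292 to 351 CPM and AD1 OE libraries to 158 to 195, with Mrgprx1 and Mrgprd as the main parts.

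The rest of the family was sparse. Of 26 other Mrgpr genes and pseudogenes, Mas1 included, 12 had more than 3 counts in at least 1 library, and 4 were tested. Of these 4, 1 was called, beside 2.57% of all tested genes called in either direction. The pseudogene Mrgprc2-ps was called, at 1.70, 1.69, 1.57 and 2.59 CPM in AD1 OE and 3.87, 4.42, 5.11 and 3.84 CPM in Control. Its groups did not overlap, as for 7.26% of all tested genes with AD1 OE lower. The log2 fold change was -1.19 ± 0.17 (SE; edgeR adjusted p = 0.0010). The call was lost without AD1 OE replicate 1 (adjusted p = 0.0061), without AD1 OE replicate 2 (0.0057) or without Control replicate 2 (0.0051), and with the sex score (0.0067), each by edgeR.

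Mrgpra4, the closest relative of Mrgpra3, had 36, 26, 17 and 26 counts in AD1 OE and 25, 67, 53 and 64 in Control. Its log2 fold change was -1.02 ± 0.23 (SE), and it was not called (edgeR adjusted p = 0.020). The pseudogene Mrgprx3-ps had 21, 9, 11 and 20 counts against 20, 30, 35 and 56, with a log2 fold change of -1.25 ± 0.26 (edgeR adjusted p = 0.014), and was not called. Mas1, the founding member of the wider family on chromosome 17, had 90 counts in AD1 OE and 92 in Control over all libraries and was not called (edgeR adjusted p = 0.885).

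The remaining genes over the floor were too low for the main filter. Mrgpra9 held 3, 3, 0 and 1 counts in AD1 OE and 7, 5, 4 and 6 in Control. Its sums of 7 (95% exact Poisson interval 2.81 to 14.4) and 22 (13.8 to 33.3) had overlapping intervals, so no fold is given. In the fit without a filter its edgeR adjusted p was 0.169. Mrgpra2b held 9 counts in AD1 OE and 25 in Control in sum, and most of its sequence is shared with Mrgpra2a. Mrgpra14 was at 0 in every AD1 OE library and held 10 counts in Control, Mrgprh held 22 and 23, Mrgprb1 held 11 and 16, Mrgprx2 held 10 and 8, and Mrgprb12-ps held 10 and 8. Mrgprb2, the mast cell receptor of the family, held 13 counts in AD1 OE and 11 in Control. Of 8 mast cell markers, 7 were tested and 1 was called lower, beside 1.78% of all tested genes. It was Cpa3, a mast cell protease (log2 fold change -0.66 ± 0.12, edgeR adjusted p = 0.0048), a call lost in 11 of 18 refits. The median log2 fold change of the 7 tested markers was -0.41, and 5 of them had an unadjusted edgeR p under 0.05. At least 6.55% of all tested genes did, as this share was under 0.05 after adjustment. The sum of all 8, at 182 to 197 CPM in AD1 OE and 179 to 199 in Control, overlapped, but Kit, which is also expressed by other cells, made up 91.3% of it.

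Genes next to the receptors on chromosome 7 were taken by position, as the 3 nearest tested genes outside the family on each side of each Mrgpr locus in the GENCODE annotation and any tested gene within it. No tested gene lay beyond Mrgprd, so Mrgprf and Mrgprd had neighbours on 1 side only. Of 16 such genes 2 were called, beside 2.57% of all tested genes called in either direction. Both lay at the cluster that holds Mrgpra1, Mrgpra3, Mrgprx1, Mrgprb4 and Mrgprb5, and a part played by position was not tested. Ptpn5, which encodes a neuronal tyrosine phosphatase and borders the cluster, was lower with a log2 fold change of -0.50 ± 0.040 (edgeR adjusted p = 1.43e-05). The pseudogene Gm7255, inside the cluster, was lower with a log2 fold change of -1.93 ± 0.33 (edgeR adjusted p = 0.0034). The genes on the far side, Zdhhc13, Csrp3 and E2f8, were not called. No neighbour of Mrgpre, Mrgprf or Mrgprd was called, although Osbpl5, beside Mrgpre, passed the p threshold (edgeR adjusted p = 0.0017) and missed the fold limit at a log2 fold change of -0.247 ± 0.038.

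Transcripts of the regulators tied to Mrgpr expression did not move past the test. None of 11 transcription factors and receptors on this list was called by edgeR, 1 had an unadjusted edgeR p under 0.05, and DESeq2 called none. Of all tested genes, edgeR called 2.57% in either direction. At least 6.55% had an unadjusted edgeR p under 0.05, as this share was under 0.05 after adjustment. The log2 fold changes of the 11 genes ran from -0.12 to 0.10, with a median of 0.00083 beside 0.0018 over all tested genes. Runx1, named here after its values were seen, was at 78.2 ± 2.24 CPM in AD1 OE and 81.3 ± 1.06 in Control (log2 fold change -0.055 ± 0.034, edgeR adjusted p = 0.436). Ret, the receptor of GDNF family ligands, had the largest log2 fold change of the list, -0.12 ± 0.047 (edgeR adjusted p = 0.199). Its groups were apart with AD1 OE lower, as for 7.26% of all tested genes, and it was the only 1 of the 11 apart.

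The signalling machinery below the receptors was described for 18 genes for Gq proteins, phospholipase C, arrestins, kinases and effector channels. Among the genes reported here, edgeR and DESeq2 called none, 5 had an unadjusted edgeR p under 0.05, and the median log2 fold change was 0.00088. Of all tested genes, edgeR called 2.57% in either direction. At least 6.55% had an unadjusted edgeR p under 0.05, as this share was under 0.05 after adjustment. Trpa1, the channel opened downstream of Mrgpra3, had the largest log2 fold change, -0.47 ± 0.24 (edgeR adjusted p = 0.327), at 0.989 ± 0.252 CPM in AD1 OE and 1.35 ± 0.371 in Control. Its value was -0.26 without Control replicate 4, -0.32 without AD1 OE replicate 3 and -0.86 with the sex score as a covariate (edgeR adjusted p = 0.042), and it was not called in any refit.

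Of 7 genes that encode precursors or proteases of known Mrgpr ligands, 5 were tested. Of these, 1 was called, beside 2.57% of all tested genes called in either direction. Tac1, the precursor of substance P, was at 64.3 ± 3.50 CPM in AD1 OE and 118 ± 7.14 in Control, with a log2 fold change of -0.88 ± 0.052 (edgeR adjusted p = 1.61e-06). Ctss, the protease cathepsin S, was not called at a log2 fold change of -0.23 ± 0.10 (edgeR adjusted p = 0.269). The list median was 0.032.

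Genes that accompany Mrgprd in nonpeptidergic nociceptors were unlike each other. Of the 9 such genes reported here, 4 were called lower, 1 was called higher and 4 were not called, with a median log2 fold change of -0.12. Over all tested genes 1.78% were called lower and 0.784% higher. The groups were apart for 5 of the 9 with AD1 OE lower and for 3 with AD1 OE higher. Over all tested genes these shares were 7.26% and 5.69%. The lysophosphatidic acid receptors Lpar3 (log2 fold change -1.47 ± 0.10, edgeR adjusted p = 4.40e-06) and Lpar5 (-1.47 ± 0.19, adjusted p = 0.00043) fell most. Gfra2, the co-receptor for neurturin, fell by 0.58 ± 0.068 (edgeR adjusted p = 0.00023) on the log2 scale, and Prkcq, a protein kinase C, fell by 0.33 ± 0.056 (edgeR adjusted p = 0.0032), a call lost in 9 of 18 refits. Plxnc1, a semaphorin receptor, rose to 140 ± 10.9 CPM in AD1 OE from 95.4 ± 7.60 in Control (log2 fold change 0.55 ± 0.064, edgeR adjusted p = 0.00023). Scn11a, which encodes the sodium channel NaV1.9, was at 679 ± 42.9 and 588 ± 46.1 CPM, not called at 0.21 ± 0.064 (edgeR adjusted p = 0.086).

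Of 16 receptor, peptide and signalling genes of itch neurons, 3 were called, all lower, beside 1.78% of all tested genes called lower. The list median was -0.23 for these 16 genes. Their log2 fold changes ran from -1.44 to 0.72. The groups were apart for 6 of them with AD1 OE lower and for 2 with AD1 OE higher. Over all tested genes these shares were 7.26% and 5.69%. Nts, the precursor of neurotensin, was at 0.897 ± 0.171 CPM in AD1 OE and 2.45 ± 0.366 in Control (log2 fold change -1.44 ± 0.18, edgeR adjusted p = 0.00037). Osmr, the oncostatin M receptor subunit that also serves interleukin 31, had a log2 fold change of -0.65 ± 0.090 (edgeR adjusted p = 0.00087), lost without AD1 OE replicate 1 (adjusted p = 0.0051). Jak1, the kinase that acts below such cytokine receptors, had one of -0.31 ± 0.037 (edgeR adjusted p = 0.00028). Cysltr2, a leukotriene receptor, had the largest log2 fold change among those not called, -1.35 ± 0.25 (edgeR adjusted p = 0.0064), at 0.363 ± 0.121 and 0.969 ± 0.154 CPM. It held 23, 6, 7 and 11 counts in AD1 OE and 17, 36, 24 and 37 in Control. Its Control libraries carried it over the filter on low counts, so its fold change is no independent result. Low genes of this kind enter the list median and the counts of groups apart.

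**Figure D4:**
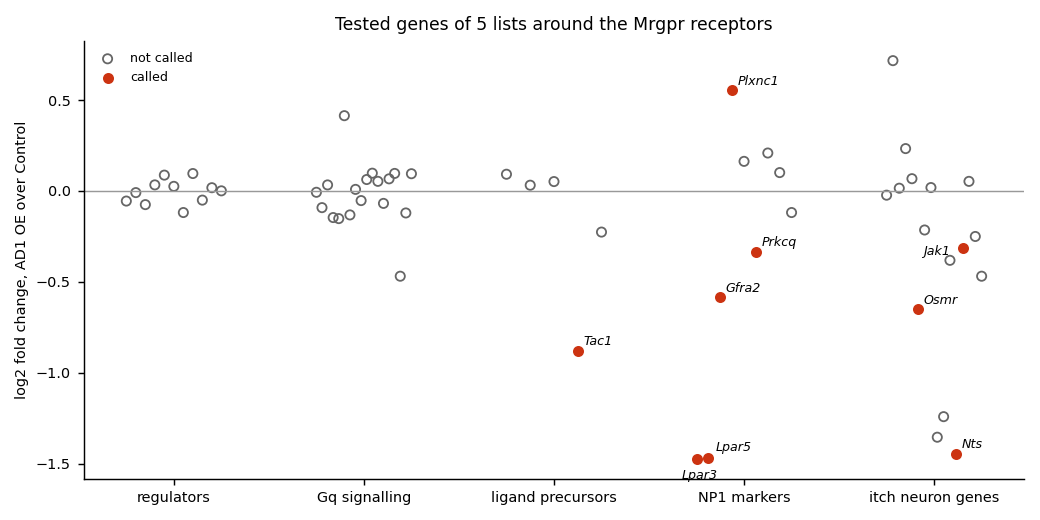
Each point is a tested gene of 1 of 5 lists, with the log2 fold change of AD1 OE over Control on the vertical axis. Filled red points with names are called genes, open points are not. The regulators lie between -0.12 and 0.10, while the NP1 (nonpeptidergic, Mrgprd) markers run from -1.47 to 0.55.

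The genes whose log2 CPM was most like that of Mrgprd over the 8 libraries were Dpp6 (Pearson r = 0.992), Pnmal1 (0.990), Slc25a12 (0.987), Cds2 (0.986) and Colgalt2 (0.986). Of these 5, Dpp6, Cds2 and Colgalt2 were called lower. For Mrgpra1 they were Pcdhac1 (r = 0.996), Mrgpra3 (0.996), Gpc5 (0.993), Epb41l1 (0.991) and Chrna7 (0.991). Pcdhac1, Gpc5, Epb41l1 and Chrna7 were called lower. Mrgpra3 entered the test through its Control libraries alone and was near the limit of detection in AD1 OE. These correlations describe 8 libraries in 2 genotypes that share their depth, and a difference between the genotypes enters each of them.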

How the data were processed

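DRG of E18.5 embryos were sequenced as stranded mRNA libraries. The authors deposited whole-number read counts per Ensembl gene for each of 8 libraries; per the labels, bcl2fastq 2.20.0.422, STAR 2.7.8a, GRCm39 and featureCounts 2.0.1 were used. Strand and multi-mapping settings are not given in the sources used here. Of 55414 identifiers, 52081 were paired with a symbol from GENCODE or RefSeq tables. These are of GRCm38 and served for names, lengths, neighbours and sequences. Counts were scaled by TMM and tested with edgeR 4.0.16 (quasi-likelihood, filterByExpr, genotype only, R 4.3.3), and calls used the study's own threshold for this comparison. SE was derived from the F statistic. DESeq2 1.42.0, limma-voom (limma 3.58.1), other scalings, filters and thresholds, a sex score, a replicate block and leaving out each library were tried. Scripts were tested on simulated data. Named genes were the 8 receptors, Dach1, Avil, other family genes over 3 counts in a library, in each list the called genes and the largest change not called, and for Mrgprd and Mrgpra1 the 5 most correlated genes without clone-based symbols. Genes and lists were chosen with earlier results of these data known. On the Gq signalling and NP1 lists 1 gene is not reported here, and the counts and medians leave it out.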

Additional observations from a re-analysis of the deposited data

Results flagged for a closer look

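In 4 of 43 groups of 4 libraries examined, over 23 named genes, 1 library stood apart by Dixon's criterion for 4 values, which sets the gap to the nearest library against the range, and in each of the 4 it was AD1 OE replicate 4. It was the lowest AD1 OE library for Mrgpre (gap over range 0.833) and Mrgprf (0.857) and the highest for Mrgprc2-ps (0.875) and Nts (0.86). Chance alone gives about 1 in 20 such groups. Without this library the log2 fold changes were -0.12 for Mrgpre and 0.096 for Mrgprf, neither called, and -1.37 for Mrgprc2-ps and -1.58 for Nts, both called by edgeR. For Mrgprx1, Mrgprd and Mrgpra1, AD1 OE replicate 4 held the highest AD1 OE value without passing the criterion.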

How the results depend on the processing

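Mrgprd, Mrgpra1 and Mrgprx1 were called lower in all 18 refits, and Mrgpra3, which entered the test through its Control libraries, met the rule in the 15 that gave it an adjusted p. DESeq2 gave Mrgpra3, Mrgprb4 and Mrgprb5 no adjusted p. With the replicate number as a block Mrgprd, Mrgpra1 and Mrgprx1 were called, as without it. The numbers share only a label (correlations of deviations -0.00991, -0.0541, -0.035 and 0.313, with 1 of 4 libraries closest to its own number). The block gave 348 calls over all genes. Requiring a log2 fold change over 1 at an adjusted p under 0.05 ended the call of Mrgprd, and left 129 calls over all genes, 3 among other Mrgpr genes, 2 among NP1 markers and 0 for ligand precursor genes. An adjusted p under 0.05 with no fold limit gave 1161 calls, 3 among other Mrgpr genes and 6 among itch neuron genes, the latter in both directions. With no filter there were 747 calls and 3 among other Mrgpr genes. Other Mrgpr genes gave 2 calls under DESeq2 with a normal prior and 0 with the sex score. Leaving out 1 library kept the calls of Mrgprd, Mrgpra1 and Mrgprx1. It gave 0 to 2 calls among other Mrgpr genes, 0 among regulators and 0 among Gq signalling genes reported here. There was 1 for ligand precursors, with 4 to 5 among NP1 markers and 2 to 3 among itch neuron genes. Over all genes there were 289 to 420, lowest without AD1 OE replicate 1. Mrgprf turned to -0.0032 under the block, -0.024, -0.016 and -0.030 without AD1 OE replicates 1, 2 and 3, and -0.060 without Control replicate 3, with 0.096 as the highest value when 1 library was left out. Mas1 turned to 0.059 without AD1 OE replicate 4 and 0.040 without Control replicate 1, with -0.28 as the lowest value when 1 library was left out. No cause was tested. The order of levels per kilobase was the same with the longest transcript's length. Depth limits Mrgprb4, Mrgprb5 and Mrgpra3.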
